A study of Mus musculus with 6 samples.

Results

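The tendon and cartilage lineage genes Tnmd, Scx, Mkx, Comp, Sox9, Sox5, Sox6, Acan, Matn4 and Hapln1 were examined in primary mouse embryonic fibroblasts with 2, 1 or 0 copies of Cas that retain exon 2. They are 10 of the 18193 genes named on the arrays, and they were measured by 25 of the 45101 probe sets, each a group of short probes for a transcript. The list holds known tendon and cartilage genes without the collagens, and every probe set annotated to one of these symbols was taken. Tnmd was picked on its measured values, because both homozygote arrays lay above the other 4. Its homozygote values are therefore given as a description, with no test.

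Cas (p130Cas, gene symbol Bcar1) is a docking protein of integrin adhesions. The groups were wild type (Cas exon 2+/+), heterozygote (Cas exon 2+/∆) and homozygote (Cas exon 2∆/∆), with 2 Affymetrix arrays each and 2 embryos for each genotype. All embryos were taken at 12.5 days post coitum (dpc) from crosses of heterozygotes, and the labels gave the strain B6 for every array except wild type 1. After removal of the head and inner organs, the rest of each embryo was cultured in medium with fetal calf serum, so the fibroblasts were a mixed population from many body sites. The p-values rest on the spread between the cultures of different embryos, and 6 arrays limit the precision of every value. In such bulk RNA, fewer cells of a type and less RNA per cell cannot be told apart.

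Tendons and cartilage arise in the embryo from mesenchymal progenitors, some of which express both Scx and Sox9. Scx, a basic helix-loop-helix factor that binds E-boxes, and the homeobox factor Mkx act in tendon cells, where the membrane protein tenomodulin, encoded by Tnmd, marks maturing tenocytes. Sox9 drives the cartilage programme together with Sox5 and Sox6, and cartilage matrix genes such as Acan, Matn4 and Hapln1 are expressed in chondrocytes.

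Promoter sequences are shown for Tnmd, the gene picked on its homozygote arrays, and for Matn4 and Acan, a pair of cartilage matrix genes whose levels followed different patterns across the arrays. Each run is the 250 bases before an annotated start of the gene, 5′ to 3′ on the strand of the gene, from RefSeq on GRCm38.p6. Capitals mark an E-box, CANNTG, or the core ACAAT of Sox sites, which was searched on both strands (as ATTGT on the other). Positions below are counted backwards from the start, to the first base of the match. The Tnmd run is chrX:133850758-133851007 on the plus strand, the Matn4 run is chr2:164405161-164405410 on the minus strand, and the Acan run is chr7:79052976-79053225 on the plus strand.
Tnmd: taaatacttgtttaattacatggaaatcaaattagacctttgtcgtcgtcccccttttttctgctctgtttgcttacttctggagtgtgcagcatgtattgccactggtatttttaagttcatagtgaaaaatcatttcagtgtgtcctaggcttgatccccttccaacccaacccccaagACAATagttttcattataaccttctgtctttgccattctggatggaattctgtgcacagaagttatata
Matn4: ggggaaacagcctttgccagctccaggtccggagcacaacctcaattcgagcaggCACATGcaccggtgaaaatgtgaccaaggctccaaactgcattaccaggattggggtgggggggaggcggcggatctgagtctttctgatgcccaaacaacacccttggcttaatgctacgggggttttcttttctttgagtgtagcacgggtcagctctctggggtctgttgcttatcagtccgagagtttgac
Acan: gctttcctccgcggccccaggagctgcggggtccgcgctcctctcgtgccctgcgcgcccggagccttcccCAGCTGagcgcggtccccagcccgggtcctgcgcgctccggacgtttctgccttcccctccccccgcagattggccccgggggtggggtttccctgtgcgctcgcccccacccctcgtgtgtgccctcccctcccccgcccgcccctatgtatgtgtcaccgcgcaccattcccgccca
The Tnmd run held 1 ACAAT match at -69 and 0 E-boxes. The Matn4 run held 1 E-box at -195 and 0 ACAAT matches, and the run before its other annotated start, chr2:164404819-164405068, held 0 of either. The Acan run held 1 E-box at -179 and 0 ACAAT matches. No E-box overlapped an ACAAT match in these runs. An E-box was present in 66.2% and ACAAT in 27.7% of the 32851 promoter runs of this length in the table. A match describes the letters only. Promoter runs were kept for 6 of the 10 genes, after entries on 1 chromosome had been left out.

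Levels below are log2(intensity + 1.78) after quantile normalization, unless an intensity is named, and a fold is on this scale, which understates the change of dim probe sets. Differences between genotypes were tested with limma, with Benjamini-Hochberg adjustment across the 22519 probe sets that passed an intensity filter. Across these, 0 (0%) passed an adjusted p of 0.05 in any of the 4 comparisons. An unadjusted p under 0.05 was found for 560 for homozygotes against the other genotypes and 855 for homozygotes against wild type. It was found for 488 for homozygotes against heterozygotes and 1185 for heterozygotes against wild type. The counts for the homozygote comparisons are below what evenly spread p-values would give, and the last is close to it. Of the 10 genes, 6 had at least 1 probe set above the filter (7 probe sets in all), and 4 genes did not (Sox5, Sox6, Acan and Hapln1). The remaining 18 probe sets, which include dim ones of Scx and Sox9, are given by their values alone.

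The level of Bcar1, the targeted gene, overlapped between genotypes, and its brighter probe set averaged 8.89 ± 0.68 for wild type, 8.25 ± 0.09 for heterozygotes and 8.25 ± 0.25 for homozygotes (mean ± SD, n = 2). Where its probes lie relative to exon 2 is not known here, so this does not check the labels. All 12 fibroblast markers were above the filter, and their summed intensity was 57829 in wild type 1 against 67298 to 79880 in the other arrays. The skeletal muscle actin gene Acta1 had an intensity of 3362 in wild type 1 against 103 to 884 elsewhere, while the other 14 skeletal muscle markers summed to 270.1 there against 110 to 231 and Myod1 and Myog were below the filter. None of the 6 measured osteoblast markers was above the filter. By Xist and the Y-linked genes, wild type 2 and both homozygotes were male and wild type 1 and both heterozygotes female. Sex and genotype therefore cannot be told apart between homozygotes and heterozygotes.

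Tnmd was highest in the 2 homozygote arrays. Its intensity was 266 and 335 for wild type, 403 and 481 for heterozygotes, and 784 and 719 for homozygotes. Both homozygote arrays lay above the other 4 by the rule that picked the gene, and both heterozygote arrays lay above both wild-type arrays. On the log2 scale the means were 8.28 ± 0.36 for wild type, 8.72 ± 0.02 for heterozygotes and 9.61 ± 0.13 for homozygotes (SD, n = 2). The lower homozygote stood at 9.52 and the highest of the other arrays at 8.73.

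The Tnmd difference of homozygotes was 1.33 (SE 0.25, a fold of 2.52) from wild type and 0.89 (SE 0.25, a fold of 1.85) from heterozygotes. The choice of the gene did not use heterozygotes against wild type, which was tested. There the difference was 0.44 (SE 0.25, a fold of 1.36, limma adjusted p = 0.838), and it was 0.19 without wild type 1. Heterozygotes and wild type 2 were thus close, with 8.53 in wild type 2 against 8.71 and 8.73 in the heterozygotes.

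Tnmd lies on the X chromosome, and its pattern was also read within each sex. The mean of the male homozygotes lay 1.08 above the male wild type 2, and the mean of the female heterozygotes lay 0.69 above the female wild type 1. Each of these has a single wild-type array behind it, and the wild-type arrays themselves differed by 0.50. A covariate for embryo sex was also fitted, as a score: the mean level of the Y-linked genes minus that of Xist. It was -5.87 and 2.93 for wild type, -8.44 and -8.62 for heterozygotes, and 3.88 and 2.24 for homozygotes. Both heterozygotes and homozygote 1 thus lay outside the span of the wild-type pair. With this covariate in the fit, homozygotes exceeded the mean of both other genotypes by 0.64 (SE 0.34) in place of 1.11 (SE 0.22). They exceeded the heterozygotes alone by 0.21 in place of 0.89. Only the wild-type pair held both sexes, so the covariate rested mainly on the gap between these 2 arrays. It cannot separate sex from genotype between homozygotes and heterozygotes. All 19 macrophage markers, 16 of them above the filter, also had higher levels in homozygotes than in the other genotypes, by a median of 1.24, and their summed intensity was 3368 and 7335 for wild type, 5680 and 5857 for heterozygotes, and 15643 and 7983 for homozygotes. In these sums homozygote 1 stood out and homozygote 2 lay near wild type 2. Of the 19 markers taken singly, 6 had both homozygotes above all other arrays, as Tnmd did by choice, and 0 had both below. Among the 11373 genes with a tested probe set, 359 had both homozygotes above. The part of macrophages in the Tnmd values was not tested.

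**Figure D1:**
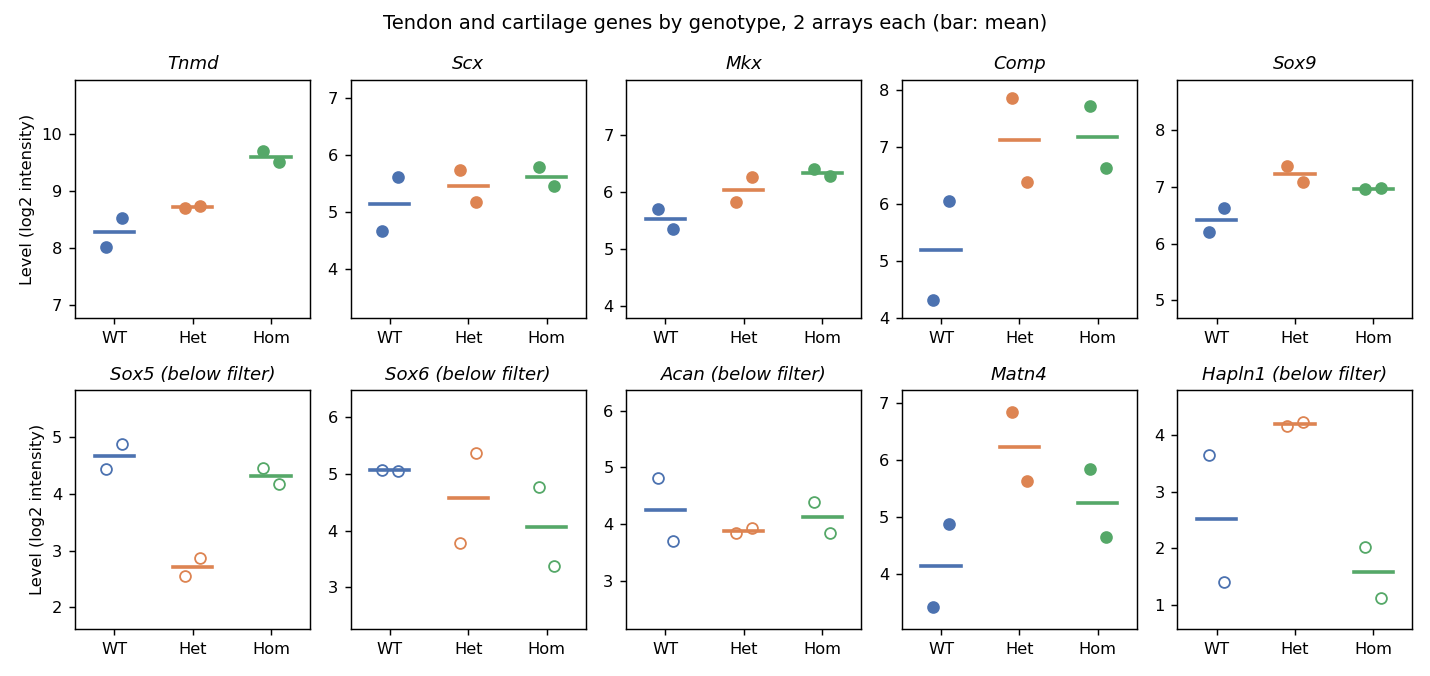
Level (log2 intensity) of the brightest probe set of each gene in wild type (WT), heterozygote (Het) and homozygote (Hom) cells, with a point for each array and a bar for the mean of 2 arrays; open points mark genes below the intensity filter, and each panel has its own range. Tnmd is highest in both homozygote arrays at 9.70 and 9.52, whereas Comp and Matn4 are lowest in wild type 1 at 4.31 and 3.41.

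Scx, the factor that acts early in the tendon lineage, was dim and varied as much within as between genotypes. Its intensity was 22.9 and 42.7 for wild type, 52.1 and 38.5 for heterozygotes, and 57.7 and 37.8 for homozygotes. Wild type 1 was low and the other 5 arrays overlapped. The difference of homozygotes from wild type was 0.49 (SE 0.38, limma adjusted p = 0.973), and without wild type 1 it was 0.01. The other Scx probe set, below the filter, was also lowest in wild type 1, with an intensity of 14.0 against 17.7 to 29.7 in the rest.

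Mkx, a later factor of tendon cells, also had both homozygote arrays above the other 4, but only just. Its intensity was 48.4 and 36.1 for wild type, 55.7 and 86.6 for heterozygotes, and 87.2 and 70.0 for homozygotes. After normalization the lower homozygote stood at 6.28 and heterozygote 2 at 6.26, so the separation was far smaller than the spread between the 2 heterozygotes, which stood at 5.83 and 6.26. Before normalization heterozygote 2 lay above homozygote 2, so the order of these arrays depends on it.

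Mkx was 0.55 (SE 0.22) higher in homozygotes than in the other genotypes (limma unadjusted p = 0.0468, adjusted p = 1). Against wild type the difference was 0.81 (SE 0.26, unadjusted p = 0.0192, adjusted p = 0.973), and against heterozygotes it was 0.30 (SE 0.26, adjusted p = 1). Among the 6 genes above the filter only Mkx was lowest in wild type 2, so its differences did not rest on wild type 1. For the first 2 comparisons they were 0.64 and 0.99 without wild type 1. They fell to 0.47 and 0.64 without wild type 2, and the first was 0.45 without heterozygote 1. Among all tested probe sets, both homozygotes lay above the other 4 arrays in 3.27% and below them in 4.02%. Of the 6 genes above the filter, Tnmd and Mkx had both homozygotes above and 0 had both below, with Tnmd picked for it.

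Comp, a pentameric matrix protein of tendon and cartilage, had among the widest ranges on the list. Its intensity was 17.8 and 58.5 for wild type, 228 and 95.2 for heterozygotes, and 213 and 90.6 for homozygotes. Both wild-type arrays were below all 4 arrays that carried the deletion, while heterozygotes and homozygotes overlapped fully. The log2 means were 5.18 ± 1.24 for wild type, 7.13 ± 1.05 for heterozygotes and 7.18 ± 0.78 for homozygotes (SD, n = 2).

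Comp was 2.00 (SE 0.74) higher in homozygotes than in wild type (limma unadjusted p = 0.0346, adjusted p = 0.973). In heterozygotes it was 1.95 (SE 0.74) higher than in wild type (unadjusted p = 0.0382, adjusted p = 0.838). These comparisons share the wild-type arrays, and they were 1.13 and 1.07 without wild type 1. Against both other genotypes together, homozygotes were 1.03 (SE 0.64, adjusted p = 1) higher, 0.59 without wild type 1 and 0.48 without homozygote 1. Homozygotes and heterozygotes, which differ in sex as well, differed by 0.05 (SE 0.74, adjusted p = 1), and by -2.47 with the covariate for embryo sex. The unadjusted p was under 0.05 with a higher level in 1.96% of all tested probe sets for homozygotes against wild type, in 2.85% for heterozygotes against wild type and in 1.22% for homozygotes against the other genotypes.

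Sox9, the leading factor of the cartilage programme, was highest in heterozygotes. Its intensity was 70.6 and 87.9 for wild type, 160 and 156 for heterozygotes, and 127 and 116 for homozygotes. The genotypes did not overlap in these deposited intensities, with heterozygotes highest and wild type lowest. The log2 means were 6.42 ± 0.29, 7.23 ± 0.19 and 6.97 ± 0.01 in the same order (SD, n = 2).

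Heterozygotes lay 0.81 (SE 0.25, a fold of 1.75) above wild type in Sox9 (limma unadjusted p = 0.0158, adjusted p = 0.838), and 0.60 above it without wild type 1. Homozygotes lay 0.55 (SE 0.25) above wild type (adjusted p = 0.973) and 0.26 below heterozygotes, a difference of -0.26 (SE 0.25, adjusted p = 1). The other Sox9 probe set above the filter ordered heterozygotes and homozygotes the other way, with differences from wild type of 0.48 and 0.60, and its lowest array was again wild type 1. The highest level among the deletion genotypes therefore depended on the probe set, while both probe sets had wild type lowest on average. The remaining Sox9 probe set, below the filter, had its highest intensity in wild type 1, with 11.4 and 3.75 for wild type, 5.58 and 1.12 for heterozygotes, and 3.03 and 7.89 for homozygotes.

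Sox5 and Sox6, the partners of Sox9, were dim, and none of their 11 probe sets passed the filter. The brightest Sox5 probe set had intensities of 19.6 and 25.6 for wild type, 4.52 and 5.93 for heterozygotes, and 21.4 and 14.4 for homozygotes. Both heterozygotes were low there. The next Sox5 probe set did not share this, with 2.45 in heterozygote 1 but 17.3 in heterozygote 2, beside 9.59 and 15.7 for wild type. Over the 7 Sox5 probe sets, homozygotes minus the other genotypes ran from -0.93 to 0.74.

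Sox6 was low in homozygote 2 on its brightest probe set, which had intensities of 30.5 and 29.2 for wild type, 12.6 and 44.8 for heterozygotes, and 27.1 and 7.42 for homozygotes. The 2 heterozygotes spanned the wild-type arrays. All 4 Sox6 probe sets had a lower mean in homozygotes than in the other genotypes, by -0.79 to -0.26, and all 4 were lowest in homozygote 2. They read the same RNA and are no replicates of each other. Without that array the difference of the brightest one was -0.06, against -0.75 with it.

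**Figure D2:**
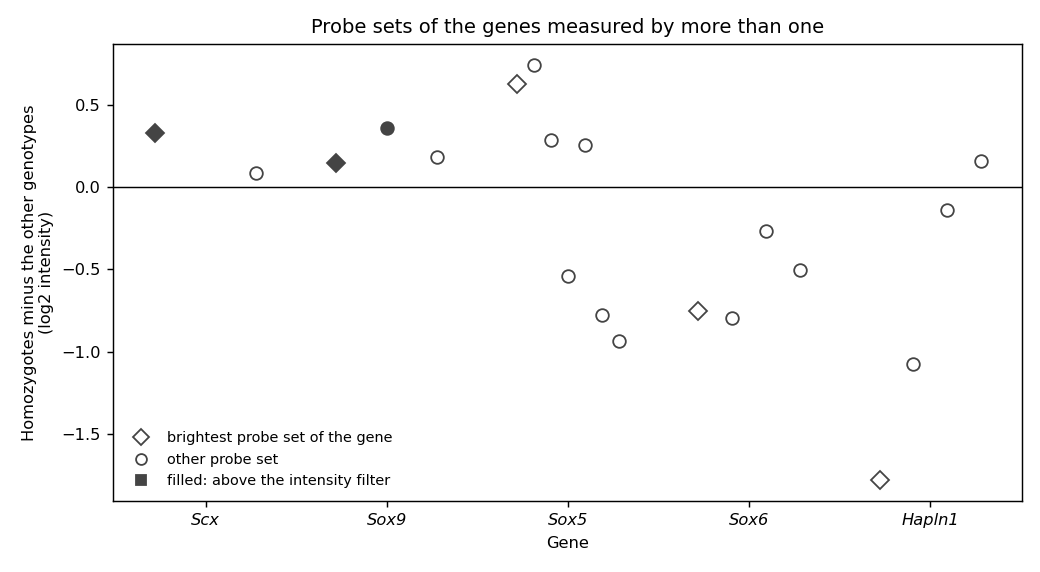
Homozygotes minus the other genotypes (log2 intensity) for every probe set of the 5 genes measured by more than 1, with diamonds for the brightest probe set, circles for the others and filled symbols for those above the intensity filter. The 4 Sox6 probe sets are all below 0, whereas those of Sox5 spread from -0.93 to 0.74 and those of Hapln1 from -1.78 to 0.16.

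Among the cartilage matrix genes, Matn4, which encodes an adaptor protein of extracellular matrix filaments, was, like Comp and Sox9, lowest in wild type 1 and highest in heterozygote 1. Its intensity was 8.87 and 25.4 for wild type, 114 and 54.99 for heterozygotes, and 60.1 and 21.0 for homozygotes. Both heterozygotes were above both wild-type arrays, and the homozygotes overlapped both other genotypes. The log2 means were 4.14 ± 1.04 for wild type, 6.24 ± 0.86 for heterozygotes and 5.25 ± 0.85 for homozygotes (SD, n = 2).

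Heterozygotes lay 2.1 (SE 0.67, a fold of 4.29) above wild type in Matn4 (limma unadjusted p = 0.0187, adjusted p = 0.838), and 1.37 above it without wild type 1. The difference of homozygotes from wild type was 1.11 (SE 0.67, adjusted p = 0.973) and that from heterozygotes was -0.99 (SE 0.67, adjusted p = 1). Against both other genotypes together it was 0.06 (SE 0.58), and it was -0.31 without wild type 1, -0.25 without heterozygote 2 and -0.54 without homozygote 1.

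Acan, which encodes aggrecan, the large proteoglycan of cartilage, had a different order of arrays. Its single probe set was below the filter, with intensities of 25.5 and 10.6 for wild type, 13.3 and 14.7 for heterozygotes, and 20.3 and 11.1 for homozygotes. Wild type 1, where Comp and Matn4 were lowest, was the highest array for Acan. The genotypes overlapped, and homozygotes minus the other genotypes came to 0.05.

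Hapln1, which encodes the link protein that ties aggrecan to hyaluronan, was near the bottom of the intensity range on all 4 of its probe sets. The brightest had intensities of 10.7 and 0.816 for wild type, 16.7 and 18.8 for heterozygotes, and 2.38 and 0.363 for homozygotes. The 3 arrays read as female were high and the 3 read as male were low. In the male arrays, homozygotes lay 0.17 above wild type 2, and in the female arrays, heterozygotes lay 0.55 above wild type 1. The next probe set divided the arrays by sex as well, with 8.01 to 10.3 in the female and 0.336 to 6.32 in the male arrays. The 2 dimmest did not, since both were highest in homozygote 1, at 7.09 and 8.90. With the covariate for embryo sex, which rested mainly on the wild-type arrays, homozygotes minus the other genotypes came to 0.05 on the brightest probe set. Without it the value was -1.78.

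**Figure D3:**
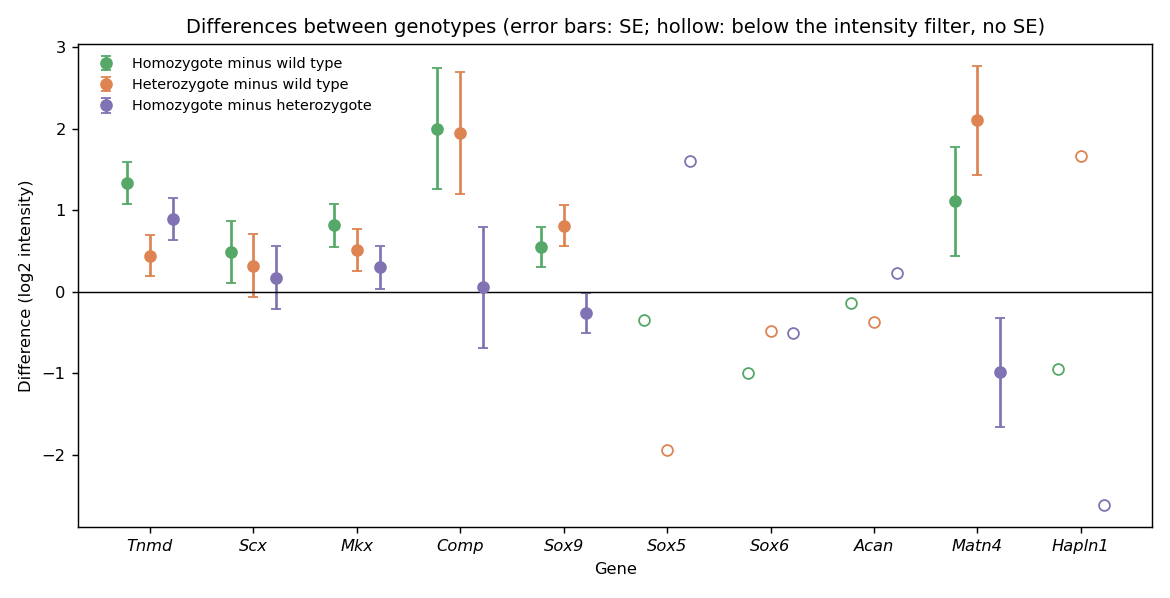
Differences between genotypes for the brightest probe set of each gene (log2 intensity), with bars for the standard error of the limma fit; open points, without a bar, mark genes below the intensity filter. Comp lies near 2 in both comparisons with wild type and near 0 between homozygotes and heterozygotes, and Tnmd differs by 0.89 in the latter. With a covariate for embryo sex, which is not plotted, these last values become -2.47 for Comp and 0.21 for Tnmd. That covariate rests mainly on the gap between the wild-type arrays.

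Over the 10 genes, 4 of them dim, the median gap between embryos of a genotype was wider than over the tested probe sets. The latter all passed the filter, so the sets are not alike. Among the 6 genes above the filter, Tnmd, Mkx and Sox9 had homozygotes close together (9.70 and 9.52, 6.40 and 6.28, 6.96 and 6.98). Those of Scx, Comp and Matn4 lay further apart. The median difference between the 2 arrays of a genotype was 0.72 for wild type, 0.37 for heterozygotes and 0.45 for homozygotes over the 10 genes, against 0.34, 0.28 and 0.32 over all tested probe sets. Of the 6 genes above the filter, 5 (Tnmd, Scx, Comp, Sox9 and Matn4) were lowest in wild type 1 of all arrays, as were 24.1% of all tested probe sets. Wild type 1 was also the array with the lowest summed fibroblast markers and the highest Acta1, and the part of either in these 5 genes was not tested.

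**Figure D4:**
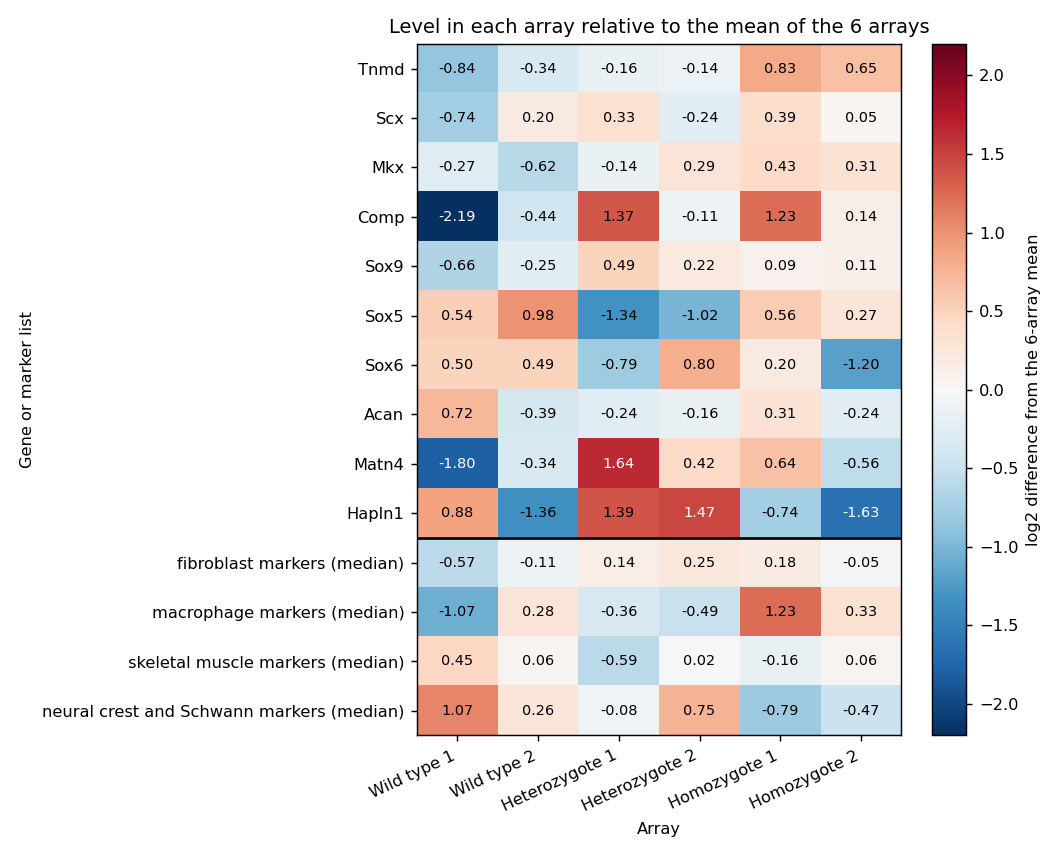
Level of each gene in each array relative to its mean over the 6 arrays (log2 difference, brightest probe set), with the medians of 4 marker lists below the line. Wild type 1 is lowest for Tnmd, Scx, Comp, Sox9 and Matn4 and highest for Acan, and the fibroblast markers have their lowest median there, at -0.57.

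Within the sexes, the 6 genes above the filter were all higher in the male homozygotes than in wild type 2, from 0.01 for Scx to 1.13 for Comp, and all higher in the female heterozygotes than in wild type 1, from 0.34 for Mkx to 2.83 for Matn4. Tnmd is one of these by choice. Since 5 of the 6 were lowest in wild type 1 of all arrays, their order in the female arrays follows from that array. The shares over all genes were not worked out for these comparisons, so the counts have no background to be read against. Of the dim genes, Sox5 (-0.57 in males and -1.72 in females) and Sox6 (-0.99 and -0.49) were lower in both, Hapln1 was higher in both, and Acan was higher in males (0.42) and lower in females (-0.93). Each comparison has 1 wild-type array, so it has no replicate check. With the covariate for embryo sex, homozygotes minus the other genotypes came to -0.57 for Scx, -0.73 for Comp, -0.22 for Sox9 and -1.46 for Matn4. Each was opposite in sign to the value without it. Only the wild-type pair held both sexes, so these values carry the gap between wild type 1 and wild type 2 over to the other genotypes. For Tnmd and Mkx the sign was kept, at 0.64 and 0.85.

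Over the 10 genes, 8 were higher in homozygotes than in the other genotypes, with a median of 0.24, and 7 were higher in heterozygotes than in wild type, with a median of 0.48. Leaving out Tnmd, which was picked for high homozygotes, the first count was 7 of 9, with a median of 0.14. Over all 11373 genes with a tested probe set, the shares were 47.4% and 50.2% and the medians -0.01 and 0.0011. Without wild type 1, 7 of the 10 were higher in each comparison, with medians of 0.21 and 0.40. The shares over all 11373 genes were then 45.5% and 46.9%. Between homozygotes and heterozygotes 6 of the 10 were higher, with a median of 0.11, or 5 of 9 with a median of 0.05 when Tnmd is left out. The share over all 11373 genes was 47% there.

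Other tendon genes were mostly higher in both deletion genotypes than in wild type, and 0 of them passed the adjusted threshold. Of the 19 measured, 16 were higher in homozygotes than in the other genotypes (median 0.32) and 15 in heterozygotes than in wild type (median 0.63). Without wild type 1 these counts were 14 in each comparison, with medians of 0.20 and 0.55. Homozygotes were higher than wild type in 14 (median 0.52) and higher than heterozygotes in 11 (median 0.12). Over the same 11373 genes, homozygotes were higher than the other genotypes in 47.4%, than wild type in 47.5% and than heterozygotes in 47%. Heterozygotes were higher than wild type in 50.2% of them. Without wild type 1, the first and last of these shares were 45.5% and 46.9%. Of the 12 fibroblast markers, 9 were higher in homozygotes and 11 in heterozygotes than in wild type (medians 0.46 and 0.73). Thbs4, a thrombospondin like Comp, had the largest difference of the list. Its log2 levels were 2.39 and 3.76 for wild type, 6.16 and 4.24 for heterozygotes, and 7.22 and 5.94 for homozygotes. It was 2.45 higher in homozygotes than in the other genotypes, although heterozygote 1 lay above homozygote 2. Its mean of 4.95 passed the filter, set at 4.57, only through the homozygote arrays, so this difference is given without a test. The wild-type intensities of 3.62 and 11.1 were near the floor. Thbs4 is counted again among the relatives of Comp. Dcn, the small proteoglycan decorin, differed by 1.5 (SE 0.47, adjusted p = 1) and had both homozygotes above the other 4 arrays. Dcn and Lum, another gene of this list, are also fibroblast markers, and both were lowest in wild type 1. The brightest tendon genes, the proteoglycan gene Bgn and the tenascin gene Tnc, differed by 0.06 and 0.02.

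The other cartilage genes were divided. Of 24 measured, 10 were higher in homozygotes than in the other genotypes (median -0.09), 7 in homozygotes than in heterozygotes (median -0.21) and 14 in heterozygotes than in wild type (median 0.23), and 0 passed the adjusted threshold. Over all 11373 genes with a tested probe set, the shares were 47.4%, 47% and 50.2% in the same order. The sulphate-donor enzyme gene Papss2, the chondroitin sulphotransferase gene Chst11 and the ubiquitin ligase gene Wwp2 differed by -0.14, -0.35 and -0.28 between homozygotes and the other genotypes. Trps1, a zinc finger factor, and Prelp, a small matrix proteoglycan, differed the other way, by 0.25 and 0.51. With Papss2 and Chst11 they are the 4 brightest of the list.

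Signals known upstream of Scx and Sox9 were divided. Of 25 measured ligands, receptors and factors, 13 were higher in homozygotes than in the other genotypes (median 0.03) and 0 passed the adjusted threshold. The share higher was 47.4% over all 11373 genes with a tested probe set. The TGF-beta receptor genes Tgfbr2 and Tgfbr1 differed by 0.22 and 0.46, and the beta-catenin gene Ctnnb1 by 0.06. Smad4 and the ligand gene Tgfb3, which with Ctnnb1 and Tgfbr2 are the 4 brightest, differed by 0.19 and -0.24. The ligand gene Wnt5a had both homozygotes below the other 4 arrays, with a difference of -0.55 (SE 0.24, limma unadjusted p = 0.0552, adjusted p = 1). Of the 25, 2 had both homozygotes below, Wnt5a and Etv5 (-0.29), and 1 had both above, Etv4, which lay below the filter. Among the 11373 genes with a tested probe set, 411 had both below and 359 both above.

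The nearest relatives of the 10 genes, such as other thrombospondins, Sox factors and matrilins, were also counted. Of 24 relatives, 8 were higher in homozygotes than in the other genotypes (median -0.22), against 47.4% of all genes with a tested probe set, and 0 passed the adjusted threshold. Cnmd, the closest relative of Tnmd, was barely measured, with intensities from 0.437 to 5.99, and lay below the filter. Thbs1 and Sox4, the brightest relatives, differed by 0.07 and -0.07. Sox10, the neural crest relative of Sox9, differed by -1.61, with log2 levels of 2.68 and 4.67 for homozygotes. Homozygote 2 thus lay above heterozygote 1, which stood at 4.62. The mean of Sox10 over all arrays, 4.75, passed the filter only through the other genotypes, since its homozygote mean was 3.675. Its difference is therefore given without a test. The neural crest and Schwann markers summed to 510 and 476 in homozygotes against 1363 to 2537 in the other arrays. The neuronal gene Stmn2 made up most of that sum, and without it the sums were 164 and 222 in homozygotes against 248 to 488 elsewhere.

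Likeness to Tnmd and to Sox9 was ranked over the 6 arrays by Pearson's r among 11039 genes, as a description of these arrays. The 4 genes most like Tnmd were Cd200r4, a receptor gene of myeloid cells (0.98), Lyst (0.96), Plscr2 (0.96) and Heph (0.96). All 4 had both homozygotes above the other arrays, as Tnmd did by choice. The 4 most like Sox9 were Etfdh, Mst1r, St8sia2 and Sec14l1, each at 0.99, and all 4 were lowest in wild type 1 and highest in heterozygote 1, as Sox9 was. Ranking by likeness selects genes with the array order of Tnmd or Sox9, so these shared orders are no separate result.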

How the data were processed

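The authors deposited linear intensities for the probe sets of 6 Affymetrix arrays, made from 2 µg of total RNA for each array, per the labels' protocols. How they were scanned, summarised and scaled is not stated there. Median deposited intensity was 21.9 to 27.3 and the highest 15930 to 17154. Values were converted to log2(intensity + 1.78), the pseudocount being the 10th percentile, and quantile normalized because log2 medians spanned 0.29, above a limit of 0.1. The 64 control probe sets were left out, and the upper 50% of the other 45037 by mean level were tested with limma 3.58.1 in R 4.3.3 (lmFit, eBayes, 1 mean for each genotype, 3 residual and 3.28 prior degrees of freedom). The procedure was tested on simulated data.

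The platform annotation gave 1 symbol to 34945 probe sets, several to 932 and none to 9160. The probe set with the highest mean stood for a gene. Every member was named; of each list, up to 4 of the brightest genes and those of smallest p, and for Tnmd and Sox9 the 4 most correlated genes. The members and lists were chosen with earlier results of these data known. Alternatives were median centring, a pseudocount of 16, no intensity filter, a replicate block, each array left out, a sex covariate and the mean over probe sets.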

Additional observations from a re-analysis of the deposited data

How the results depend on the processing

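Of 105 alternative values of the 10 genes, 51 had an adjusted p (Scx, Mkx, Comp, Sox9, Matn4 and 1 of Sox6), and 0 of these passed the threshold. For homozygotes against the other genotypes, the covariate for embryo sex turned the sign of Scx (-0.57), Comp (-0.73), Sox9 (-0.22) and Matn4 (-1.46), and a pseudocount of 16 turned that of Matn4 (-0.0402); leaving out single arrays gave Matn4 between -0.54 and 0.66. Among the genes without a test, Hapln1 came to 0.05 with the sex covariate, Acan to -0.23 without wild type 2 or homozygote 1, and Sox5 to -0.05 over all its probe sets. The sex covariate rested mainly on the gap between the wild-type arrays. The cause of these changes was not tested. Probe sets passing the threshold, 0 in all 4 comparisons, ranged with 1 array left out from 0 to 2 for homozygotes against the other genotypes and against heterozygotes, and from 0 to 1 for heterozygotes against wild type. They were Eif2s3y, a Y-linked gene, and 1 probe set not named here, and appeared without a wild-type array. With the sex covariate, 1 (Egfl6) passed for heterozygotes against wild type. The replicate block gave 0 calls, with 410 unadjusted p-values under 0.05 in place of 560; the replicate numbers did not pair the arrays (correlations of deviations -0.36, -0.14 and -0.14). Sox5, Sox6, Acan and Hapln1 lay below the intensity filter, where signal over background limits any statement.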
